A study of Homo sapiens with 6 samples.

Results

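The libraries numbered replicate 1 in an RNA sequencing series of UMUC3, a long-established line of human bladder cancer cells, are described here against the libraries numbered 2 and 3. They were chosen by their number in the labels alone, and they are 2 of the 6 libraries: 1 from cells infected with TIM-1 in the pLVX-IRES-ZsGreen vector and 1 from cells infected with that vector without TIM-1. The other 4 libraries are replicates 2 and 3 of the same treatments. All 6 came from the same cell line, all cells received a virus carrying ZsGreen, a green fluorescent protein, and RNA was total RNA extracted with Trizol. TIM-1, encoded by HAVCR1, is a cell surface receptor for phosphatidylserine. The labels give neither the dose of virus, the time after infection nor a clone. They do not say what the replicate number marks, so differences in culture, handling and library preparation cannot be told apart. Nor do they name separate cultures, and a p-value here therefore reflects nothing but the scatter of these 6 libraries, part or all of which may be technical.

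Several of the gene groups that follow are controlled by the state of a culture rather than by the identity of the cell. NF-kB and AP-1 transcription factors are switched on within minutes by cytokines, growth factors or stress and drive chemokine and immediate early genes. The unfolded protein response senses misfolded protein in the endoplasmic reticulum (ER), and its branch through ATF4 is also switched on by amino acid shortage. Hypoxia-inducible factors raise glucose uptake and glycolysis when oxygen is low. The genes of the mitotic spindle are transcribed mostly in G2 and mitosis, whereas histone genes are transcribed in S phase.

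Total gene counts lay between 14312387 and 18605914 per library, and 21441 to 22220 genes had at least 1 count. HAVCR1 gave 488, 608 and 620 CPM (counts scaled to the size of the library) in TIM-1 replicates 1, 2 and 3, and 4, 0 and 0 counts in empty-vector replicates 1, 2 and 3, in the direction of the labels. Genes encoded by mitochondrial DNA took 4.20% to 5.08% of counts, the highest share in empty-vector replicate 3. Of the markers of other cell types, none of 8 endothelial genes, 1 of 10 leukocyte genes and 2 of 10 fibroblast genes were abundant enough to test, and 4, 6 and 1 of these, respectively, were at 0 in every library. The summed endothelial markers reached at most 0.806 CPM and the summed leukocyte markers 1.85 to 3.63 CPM. Fibroblast markers summed to 16.5 and 9.71 CPM in replicate 1 of the TIM-1 and empty-vector groups, against 5.65 to 10.4 in the other libraries, and their called member was COL1A1. Of 19 urothelial markers 6 were tested and 4 were at 0 in every library, with sums of 338 to 549 CPM over the 6 libraries. KRT18, a keratin of simple epithelium, was the called urothelial marker and was lower in replicate 1 (log2 difference -0.51, SE 0.08).

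The replicate 1 libraries of the 2 treatments lay closer to each other than either lay to the other libraries of its own treatment. Distance was measured as the root mean square difference of log2 CPM over the tested genes. It was 0.394 between both replicate 1 libraries and 0.464 to 0.514 between a replicate 1 library and replicate 2 or 3 of its own treatment. Replicates 2 and 3 stood 0.316 apart with TIM-1 and 0.361 apart with the empty vector. Empty-vector replicate 1 lay nearer to TIM-1 replicates 2 and 3 (0.454 and 0.466) than to empty-vector replicates 2 and 3 (0.482 and 0.514). In a principal component analysis, PC1 held 44.3% of the variance and placed TIM-1 replicate 1 at 37.62 and empty-vector replicate 1 at 22.73. TIM-1 replicates 2 and 3 stood at -3.04 and -5.511 and empty-vector replicates 2 and 3 at -23.37 and -28.43. At each replicate number TIM-1 lay above the empty vector on PC1. Empty-vector replicate 1 nevertheless lay above TIM-1 replicates 2 and 3, so PC1 did not separate the treatments as groups. PC2 held 21.7% of the variance. On it TIM-1 replicates 1, 2 and 3 stood at 1.973, 20.72 and 21.33, and the empty-vector replicates at -21.61, -7.889 and -14.53.

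**Figure D1:**
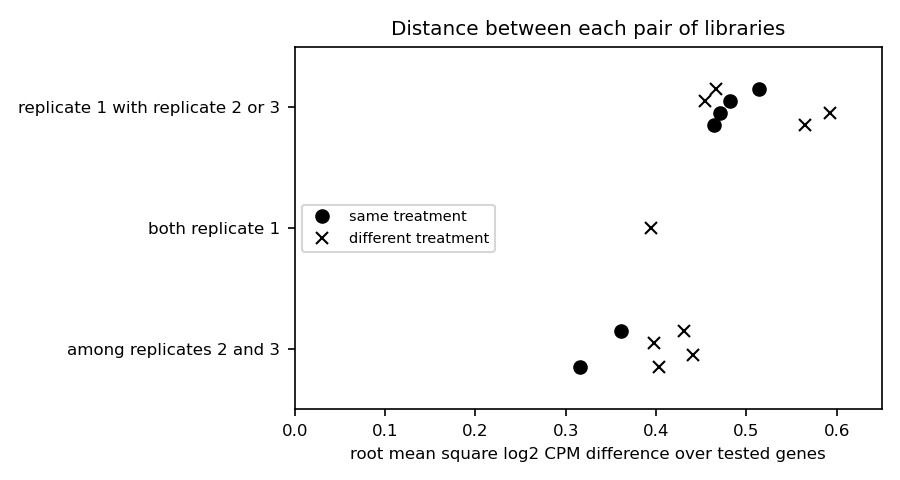
Root mean square difference of log2 CPM over the 14479 tested genes (horizontal axis) for each of the 15 pairs of libraries, grouped by replicate number (vertical axis), with circles for pairs of the same treatment and crosses for pairs across treatments. The cross for both replicate 1 libraries, at 0.394, lies left of all 8 pairs of a replicate 1 library with replicate 2 or 3, which begin at 0.454.

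Replicate 1 was compared with replicates 2 and 3 with treatment as a term, using the quasi-likelihood test of edgeR with Benjamini-Hochberg adjustment and a threshold of 0.05. Of 14479 tested genes, 1673 were higher in replicate 1 (11.6% of those tested) and 1740 were lower (12%). These are the background shares for every gene group described here, and the median log2 difference over all tested genes was -0.01. The called genes had a median absolute log2 difference of 0.422, with a difference of at least 2-fold at 150 higher and 185 lower ones. Without regard to the test, both replicate 1 values lay above all 4 others for 2785 genes (19.2%) and below all 4 for 2957 (20.4%). The counts fell to 784 higher and 833 lower without TIM-1 replicate 1 and to 708 and 670 without empty-vector replicate 1, which in each case leaves a lone replicate 1 library that is assumed to vary like the others. Without TIM-1 replicate 3, 1154 genes were lower. With no treatment term, 1055 were higher and 1117 lower. When the test asked for a difference beyond 0.5 on the log2 scale, 98 were higher and 130 lower. All 3413 called genes kept their direction under every setting that gave them a value.

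Most differences had the same direction in both treatments. Within TIM-1 alone, replicate 1 differed from replicates 2 and 3 at 705 higher genes (4.87%) and 680 lower genes (4.7%), and within the empty vector alone at 796 (5.5%) and 827 (5.71%). Each of these tests sets 1 replicate 1 library against 2 others, and its spread comes from replicates 2 and 3 of both treatments in a single fit (2 residual degrees of freedom). The lone replicate 1 library is assumed to vary like them, and because the spread is shared the calls in the 2 treatments are not independent. Without empty-vector replicate 2 or 3, which the TIM-1 test does not compare, 1461 or 1410 genes were higher with TIM-1 and 1395 or 1440 lower. Without TIM-1 replicate 2 or 3 the higher count was 322 or 253 and the lower 317 or 254. Without empty-vector replicate 2, 1429 genes were higher and 1738 lower within the empty vector. Of the 705 genes higher with TIM-1, 683 (96.9%) were also higher with the empty vector and 406 were called there. Of the 680 lower genes, 666 (97.9%) were lower with the empty vector and 391 were called. In the other direction, 769 of 796 (96.6%) and 803 of 827 (97.1%) kept their sign with TIM-1. Their median log2 difference shrank from 0.583 to 0.445 for the higher genes and from -0.576 to -0.419 for the lower. For comparison, 71.2% of all tested genes had the same sign in both treatments. Across all tested genes, which are not independent, the differences in the 2 treatments correlated at 0.49 (Pearson) and 0.53 (Spearman).

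The difference between the treatments was tested directly as well. No gene had a replicate 1 difference that differed between TIM-1 and empty vector by the quasi-likelihood test of edgeR (0% higher with TIM-1 and 0% lower), while 779 genes had an unadjusted p under 0.05. DESeq2 called 2 genes higher and none lower. Without empty-vector replicate 2 the edgeR test called 169 genes higher and 64 lower. A p that misses the threshold does not show equal differences in both treatments. A few genes called within both treatments went opposite ways. HAVCR1 was among them, at -0.33 within TIM-1 and 5.07 within the empty vector, where it rests on 4, 0 and 0 counts.

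**Figure D2:**
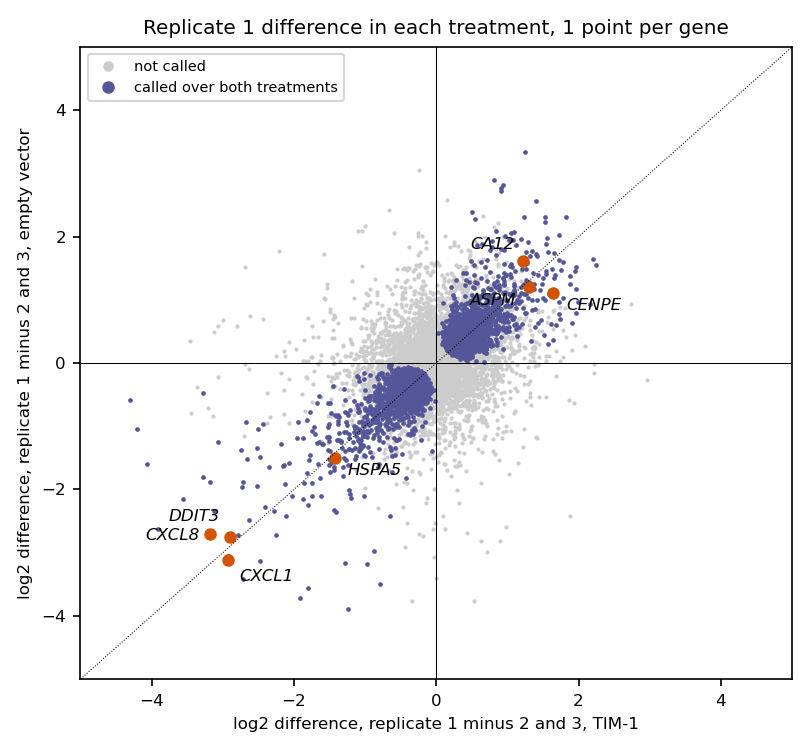
Log2 difference of replicate 1 minus replicates 2 and 3 with TIM-1 (horizontal axis) and with the empty vector (vertical axis), 1 point per tested gene, blue where called over both treatments together, with 7 marker genes in orange; the dotted line marks equal differences, and 11 genes beyond 5 on either axis are not shown. The 4 lower markers sit at the lower left and the 3 higher markers at the upper right, all close to the dotted line.

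In what follows, the replicate 1 pair is TIM-1 replicate 1 followed by empty-vector replicate 1, the TIM-1 pair is TIM-1 replicates 2 and 3, and the empty-vector pair is empty-vector replicates 2 and 3. Levels are in CPM, differences are log2 values of replicate 1 minus replicates 2 and 3 over both treatments, and adjusted p-values come from the quasi-likelihood test of edgeR. SE throughout is the absolute log2 difference divided by the square root of the F statistic of that test. With so few libraries it cannot be read as the standard error of a normal distribution. In RNA from bulk cultures, fewer cells of a type and less RNA per cell cannot be told apart.

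Inflammatory chemokines were the group with the lowest median. CXCL1, which attracts neutrophils, stood at 7.18 and 8.14 CPM in the replicate 1 pair, 54.2 and 54.5 in the TIM-1 pair and 71.5 and 69.5 in the empty-vector pair. Both replicate 1 values were far below the other 4, with a log2 difference of -3.02 (SE 0.11, adjusted p = 6.06e-16). CXCL8, the chemokine interleukin 8, stood at 5.73 and 8.14 CPM, against 55.6 and 48.8 in the TIM-1 pair and 60.6 and 45.2 in the empty-vector pair. It too separated without overlap (-2.92, SE 0.15, adjusted p = 1.32e-11). CXCL2, a close relative of CXCL1, gave 9.93 and 14.7 CPM in replicate 1 and 50.4 to 73.7 in the others (-2.33, SE 0.10). CCL2, which attracts monocytes, gave 3.04 and 3.88 CPM in replicate 1 and 13.7 to 17.9 in the others (-2.21, SE 0.18). CXCL1, CXCL2 and CXCL3 are similar in sequence, so reads may have been shared between them.

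Of 28 listed chemokine and cytokine genes, 15 were tested, 12 were lower in replicate 1 and 1 was higher, with a median log2 difference of -1.85. The median was -1.01 within TIM-1 and -1.62 within the empty vector, and -1.0 over both treatments without empty-vector replicate 1. CXCL3 (-1.85), IL32 (-1.23), IL18 (-0.92), CSF1 (-0.86) and LIF (-0.72) were among the lower members. For CSF2, a growth factor of granulocytes and macrophages, the counts were 1 and 0 in the replicate 1 pair and 10, 25, 19 and 14 in the other libraries. For TNF they were 0 and 2 against 5, 14, 27 and 24. CCL20 had 15 and 0 counts in replicate 1 against 31, 33, 40 and 48, and its within-TIM-1 difference was not called. IL11, the higher member, lies outside the naming rule and was chosen after its values were seen, as were CSF2, TNF and CCL20. No member was called higher without empty-vector replicate 1. IL11 stood at 12.2 and 11.4 CPM in replicate 1 and 6.86 to 9.07 in the others (0.65, SE 0.15, adjusted p = 0.00253).

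NF-kB subunits, inhibitors and feedback genes moved the same way. Of 23 tested, 15 were lower and 1 was higher, with a median of -0.62. TRAF1, an adaptor of TNF receptors, stood at 2.41 and 3.26 CPM in the replicate 1 pair, and 16.6 to 23.1 in the other 4 libraries (-2.75, SE 0.17). NFKBIA, the inhibitor that holds NF-kB in the cytoplasm and is itself an NF-kB target, stood at 66.6 and 94.4 CPM in replicate 1, 186 and 193 in the TIM-1 pair and 299 and 281 in the empty-vector pair (-1.57, SE 0.07). NFKB2 differed by -1.31 (SE 0.08). Each of these 3 genes separated the replicate 1 pair from the other 4 libraries and was called within each treatment. RELB (-1.73), BIRC3 (-1.81), TNFAIP3 (-1.44) and NFKBIZ (-1.55) were lower too. RELA, the main activating subunit, had a log2 difference of -0.15 and did not pass the test (adjusted p = 0.237). BCL3, an atypical inhibitor family member, was the higher one, at 42.3 and 37.2 CPM against 22.2 to 27.5, and was chosen after its values were seen.

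The promoters of 4 of these genes are printed because they hold a match to the NF-kB site and show where it lies. Each is the 160 bases before the RefSeq transcription start on GRCh38.p14, written 5′ to 3′ on the gene's strand. Capitals mark matches to GGNNTTTCC, searched on both strands, so that a minus-strand match reads as its reverse complement.
CXCL1, chr4:73869233-73869392, plus strand: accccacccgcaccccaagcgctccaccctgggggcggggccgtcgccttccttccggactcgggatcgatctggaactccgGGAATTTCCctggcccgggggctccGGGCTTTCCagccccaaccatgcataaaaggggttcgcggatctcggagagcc
CXCL2, chr4:74099196-74099355, minus strand: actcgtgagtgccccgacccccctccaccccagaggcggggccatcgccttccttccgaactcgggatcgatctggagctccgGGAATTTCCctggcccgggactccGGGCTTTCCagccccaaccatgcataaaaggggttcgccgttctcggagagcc
CXCL8, chr4:73740409-73740568, plus strand: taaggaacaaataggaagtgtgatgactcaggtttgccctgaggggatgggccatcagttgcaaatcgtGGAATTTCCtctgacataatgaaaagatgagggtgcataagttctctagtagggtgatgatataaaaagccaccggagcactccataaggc
NFKBIA, chr14:35404750-35404909, minus strand: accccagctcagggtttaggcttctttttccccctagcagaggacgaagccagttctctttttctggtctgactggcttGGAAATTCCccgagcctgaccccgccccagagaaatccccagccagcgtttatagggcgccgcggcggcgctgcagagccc
The first bases of the matches lie at -78 and -53 in CXCL1, -77 and -53 in CXCL2, -91 in CXCL8 and -81, on the minus strand, in NFKBIA, counted from the start. Over windows from 250 bases before to 50 after the start, 6 of 9 chemokine and cytokine promoters in the table and 9 of 19 of the NF-kB list held a match, against 6.26% of all 27305 promoters and 6.55% of the 10430 of tested genes. The windows of TRAF1 and NFKB2 held none. Among called genes, the match was in 4.66% of the higher and 8.18% of the lower promoters. A match is a description of the letters and not a measured binding site.

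Immediate early genes, which respond to growth factors and stress before new protein is made, were lower as well. Of 24 tested, 19 were lower and none was higher, with a median of -0.89. FOSB, an AP-1 subunit, stood at 12.6 and 18 CPM in the replicate 1 pair, 94.4 and 96.8 in the TIM-1 pair and 139 and 159 in the empty-vector pair. Replicate 1 lay below all other libraries, with a log2 difference of -2.99 (SE 0.10, adjusted p = 6.95e-17). FOS gave 86.4 and 85.1 CPM in replicate 1 and 288 to 325 in the others (-1.82, SE 0.07). EGR1, a zinc finger transcription factor, gave 315 and 274 CPM against 653 to 707 (-1.18, SE 0.07), and EGR3 differed by -2.43 (SE 0.27). JUN changed little by comparison (-0.29), while JUNB (-1.17) and JUND (-1.48) were lower by more than 2-fold.

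Of 19 tested feedback genes of the ERK kinase pathway, 5 were lower and 2 higher, with a median of -0.08. A single gene was higher without either replicate 1 library, without empty-vector replicate 2, with a minimum count of 50 or with no treatment term. DUSP6, a phosphatase of ERK, stood at 10.3 and 11.5 CPM in the replicate 1 pair and 32.9 to 36.9 in the other libraries (-1.65, SE 0.12). DUSP1 (-0.84) and SPRY4 (-0.64) were lower, whereas SPRY1, another inhibitor of receptor signalling, was higher at 3.59 and 4.13 CPM against 0.724 to 1.30 (1.91, SE 0.31). DUSP4 was the other higher member (0.32). Among 10 tested EGF receptor family genes and ligands, the ligands HBEGF (-1.24), EREG (-1.08) and NRG1 (-0.98) were lower and the receptor EGFR was higher (0.41, SE 0.07). DUSP4 and EGFR were chosen after their values were seen. TGFA, another ligand, had a log2 difference of -0.15 and did not pass the test.

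Chaperones of the ER were lower in replicate 1. HSPA5, the ER chaperone BiP, stood at 1025 and 947 CPM in the replicate 1 pair, 2798 and 2676 in the TIM-1 pair and 2655 and 2730 in the empty-vector pair. The 4 later-numbered libraries lay close together and replicate 1 lay well below them (-1.46, SE 0.06, adjusted p = 1.51e-14). HERPUD1, a component of ER-associated degradation, gave 59.8 and 58.3 CPM against 162 to 175 (-1.53, SE 0.07), and SDF2L1 differed by -1.12 (SE 0.09). Of 30 tested genes of the list, 19 were lower and 1 was higher, with a median of -0.35. DNAJB9 (-1.33), XBP1 (-0.85), HSP90B1 (-0.64) and PDIA4 (-0.55) were among the lower genes. The sensors of ER stress did not pass the test, with log2 differences of -0.05 for ERN1, -0.03 for EIF2AK3 and -0.02 for ATF6. EDEM1, the higher member (0.32, SE 0.09), was chosen after its values were seen, and no member was called higher without either replicate 1 library or TIM-1 replicate 3.

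Targets of ATF4 and genes of the integrated stress response were mostly lower. DDIT3, the transcription factor CHOP, stood at 7.04 and 8.08 CPM in the replicate 1 pair, 48.9 and 55.9 in the TIM-1 pair and 54.0 and 55.4 in the empty-vector pair. Replicate 1 was separate from the other 4 libraries (-2.82, SE 0.12, adjusted p = 5.94e-15). CHAC1, which degrades glutathione, gave 0.483 and 1.94 CPM against 5.34 to 8.81 (-2.59, SE 0.27). ATF3 differed by -2.02 (SE 0.16) and PPP1R15A, which reverses the block of translation, by -1.03 (SE 0.07). Of 33 tested members, 22 were lower and 2 were higher, with a median of -0.43, and 13 were lower without empty-vector replicate 1. The higher ones, DDIT4 (0.87) and VLDLR (0.68), also stand in the hypoxia list and were chosen after their values were seen. SLC7A11 (-1.14), PSAT1 (-0.68) and PHGDH (-0.52), which import cystine and make serine, were lower. ATF4 itself was at 380 and 402 CPM against 442 to 528 (-0.30, SE 0.06). ASNS was counted at only 1.17 to 4.95 CPM, so its value is uncertain.

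The HSPA5 promoter is printed because it carries the ER stress response element, which binds ATF6 together with a CCAAT-binding factor. Capitals mark the match, which is CCAAT, then any 9 bases, then CCACG, searched on both strands.
HSPA5, chr9:125241344-125241503, minus strand: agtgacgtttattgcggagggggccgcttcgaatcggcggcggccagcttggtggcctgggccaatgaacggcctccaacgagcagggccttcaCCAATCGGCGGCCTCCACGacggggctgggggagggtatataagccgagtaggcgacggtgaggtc
The match starts at -66, and the first letters of this element are also a CCAAT box. Of 27 promoters of the ER list, 6 held the element, against 22 of all 27305 (0.0806%) and 14 of the 10430 of tested genes (0.134%). The windows of HERPUD1 and SDF2L1 held none. Among called genes, it was found in none of 1265 higher and 8 of 1382 lower promoters. The composite site of ATF4 and C/EBP, TGATGNAA, was found in 5 of 28 promoters of the ATF4 list, in 3.67% of all promoters and in 1.59% of those of tested genes. The windows of DDIT3 and PPP1R15A held none, and that of ATF3 held 1, at -191.

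Aminoacyl-tRNA synthetases and cholesterol genes were lower by smaller amounts. Of 20 cytosolic synthetases, which load amino acids onto tRNA, 12 were lower and 1 was higher (median -0.27). Without empty-vector replicate 1, 3 were lower and 0 higher, and without the treatment term 7 and 0. None was higher with DESeq2 or without TIM-1 replicate 2 or 3. AARS1 stood at 254 and 287 CPM in the replicate 1 pair, 421 and 415 in the TIM-1 pair and 480 and 553 in the empty-vector pair (-0.79, SE 0.07). Of 24 tested genes of cholesterol synthesis and uptake, 18 were lower and none was higher (median -0.42). HMGCS1, an early enzyme of the pathway, gave 91.7 and 112 CPM in replicate 1, 153 and 147 in the TIM-1 pair and 238 and 210 in the empty-vector pair (-0.85, SE 0.08). Replicate 1 lay below the others in each treatment. MSMO1 (-0.81) and INSIG1 (-0.70) were lower too. Without the treatment term, 11 genes were lower, and HMGCS1 was not called. Of 15 fatty acid synthesis genes, only FASN was called (-0.25, SE 0.08), and it was not called without empty-vector replicate 1, without the treatment term or within TIM-1.

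Targets of hypoxia-inducible factors were higher in replicate 1. CA12, a carbonic anhydrase on the cell surface, stood at 300 and 180 CPM in the replicate 1 pair, 131 and 127 in the TIM-1 pair and 58.9 and 59.2 in the empty-vector pair. Both replicate 1 values lay above all others, and within each treatment the level was at least 2-fold higher, on a background that was itself higher with TIM-1 (1.41, SE 0.08, adjusted p = 1.98e-12). CA12 was not called without the treatment term, and neither was SLC2A1. SLC2A1, the glucose transporter GLUT1, gave 289 and 199 CPM in replicate 1, 133 and 138 in the TIM-1 pair and 83.2 and 83.6 in the empty-vector pair (1.17, SE 0.07). ANGPTL4, an inhibitor of lipoprotein lipase, gave 107 and 101 CPM against 32.7 to 47.2 (1.35, SE 0.08). Of 32 tested members, 27 were higher and none was lower, with a median of 0.70, and 25 were called within each treatment. PDK1 (1.21), NDRG1 (1.19), BHLHE41 (1.27), BNIP3 (0.86) and VEGFA (0.68) were among them. SLC2A3, PFKFB3, STC2, LOX and ANKRD37 did not pass the test.

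Glycolytic enzymes were higher by less. Of 18 tested, 13 were higher and 1 was lower, with a median of 0.33. PGK1 stood at 1325 and 1064 CPM in the replicate 1 pair, 827 and 888 in the TIM-1 pair and 640 and 655 in the empty-vector pair (0.67, SE 0.06). LDHA, which makes lactate, gave 3248 and 2957 CPM against 2373 and 2351 in the TIM-1 pair and 1691 and 1842 in the empty-vector pair (0.60, SE 0.06). ENO2 differed by 1.02 (SE 0.07). Each of these 3 enzymes was highest in the replicate 1 pair. SLC16A1, a lactate transporter, was the lower member (-0.31, SE 0.07) and was chosen after its values were seen. It was not called without TIM-1 replicate 1. ALDOA was counted at 0.557 to 3.10 CPM, which is very low for this enzyme, and its value is uncertain. The hypoxia response element core ACGTG, on either strand, was found in 16 of 27 promoters of the hypoxia list, in 21.6% of all promoters and in 27.0% of those of tested genes. Its share was 25% among called higher and 30.8% among called lower genes. The windows of CA12 and SLC2A1 held none, and that of ANGPTL4 held 1, at -234 on the minus strand.

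**Figure D3:**
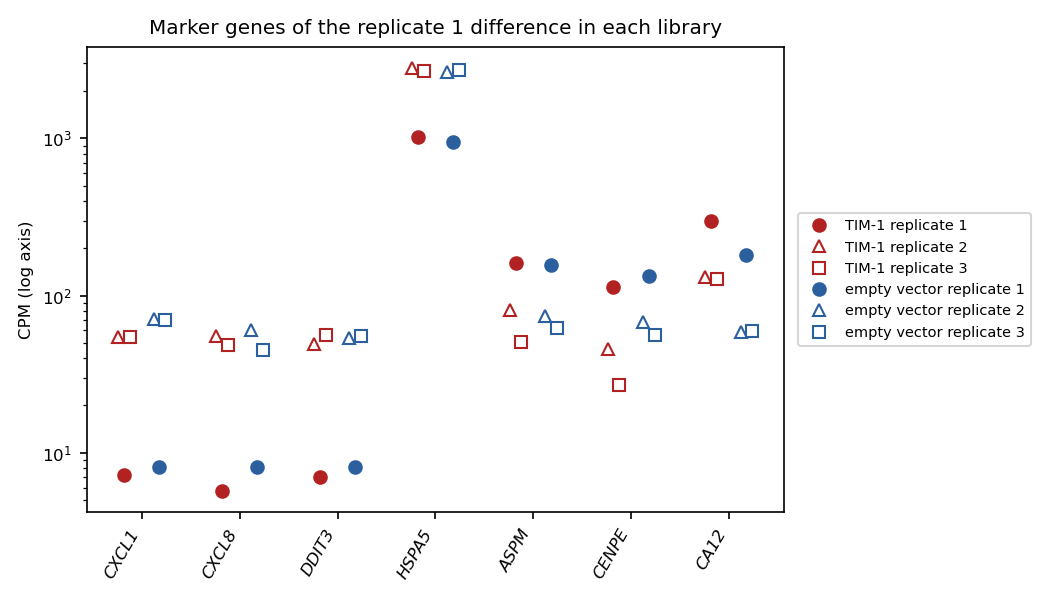
CPM on a log axis in each of the 6 libraries for 7 marker genes, with filled circles for replicate 1 and open symbols for replicates 2 and 3, red for TIM-1 and blue for empty vector. For CXCL1, CXCL8, DDIT3 and HSPA5 both filled circles lie below all open symbols, and for ASPM, CENPE and CA12 both lie above.

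Mitotic genes were nearly all higher in replicate 1. Of 50 tested kinesin, kinetochore and spindle genes, 46 were higher and none was lower, with a median of 0.51 (0.47 within TIM-1 and 0.54 within the empty vector). PLK1, a mitotic kinase, stood at 137 and 133 CPM in the replicate 1 pair, 75.4 and 75.6 in the TIM-1 pair and 74.8 and 81.6 in the empty-vector pair (0.81, SE 0.07). KIF20A, a kinesin of cell division, gave 479 and 448 CPM against 248 to 312 (0.74, SE 0.06), and DLGAP5, a spindle protein, gave 228 and 248 against 129 to 151 (0.79, SE 0.07). The replicate 1 pair was highest for all 3. MKI67 (0.60), TOP2A (0.53) and CCNB1 (0.49) were higher as well.

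The spindle gene ASPM gave 162 and 157 CPM in the replicate 1 pair, 80.7 and 50.8 in the TIM-1 pair and 73.8 and 61.8 in the empty-vector pair. Its groups did not overlap, but TIM-1 replicates 2 and 3 differed from each other (1.26, SE 0.18, adjusted p = 0.00491). CENPE, a kinetochore motor, gave 113 and 133 CPM against 45.5 and 27.0 and 68.1 and 56.2, with the same spread in the TIM-1 pair (1.37, SE 0.27, adjusted p = 0.0379). ASPM was not called without empty-vector replicate 3. CENPE was lost without that library or TIM-1 replicate 1, with no filter on low counts, with no treatment term and within the empty vector alone. CENPF had a log2 difference of 0.97 and did not pass the test (adjusted p = 0.109), with 222 CPM in TIM-1 replicate 2 and 130 in TIM-1 replicate 3.

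Promoters of 3 mitotic genes are printed because they hold the letters of the cell cycle homology region, the element through which repressor complexes silence G2 and mitotic genes earlier in the cycle. Capitals mark matches to TTTGAA on either strand.
ASPM, chr1:197146670-197146829, minus strand: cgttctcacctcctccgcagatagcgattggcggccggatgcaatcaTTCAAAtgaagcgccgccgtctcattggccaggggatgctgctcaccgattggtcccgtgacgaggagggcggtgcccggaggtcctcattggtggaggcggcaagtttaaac
PLK1, chr16:23678729-23678888, plus strand: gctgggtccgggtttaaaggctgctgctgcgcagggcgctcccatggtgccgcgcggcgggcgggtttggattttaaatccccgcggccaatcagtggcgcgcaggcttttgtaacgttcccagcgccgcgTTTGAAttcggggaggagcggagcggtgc
DLGAP5, chr14:55191586-55191745, minus strand: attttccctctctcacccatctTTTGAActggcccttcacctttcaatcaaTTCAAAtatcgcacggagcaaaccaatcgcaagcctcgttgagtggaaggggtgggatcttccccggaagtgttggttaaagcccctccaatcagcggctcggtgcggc
The matches start at -113 on the minus strand in ASPM, at -29 in PLK1, and at -138 and, on the minus strand, -109 in DLGAP5. Over the longer windows, 33 of 43 promoters of the mitotic list held a match, against 15.4% of all promoters and 9.43% of those of tested genes. CCAAT was in 32 of the 43, against 35.7% and 37.1%. The CENPE and KIF20A windows held no TTTGAA.

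S phase genes did not follow the mitotic genes. Of 47 tested DNA replication and G1/S genes, 17 were lower and 1 was higher, with a median of -0.14. CLSPN, a replication checkpoint adaptor, stood at 65.2 and 79.6 CPM in the replicate 1 pair, 98.8 and 93.9 in the TIM-1 pair and 106 and 109 in the empty-vector pair (-0.50, SE 0.07). E2F1 (-0.37) and FEN1 (-0.33) were lower, and neither was called within TIM-1 or without empty-vector replicate 1. Without that library 3 genes were lower, and without the treatment term 11. POLE was the higher member (0.22) and was chosen after its values were seen. No member was called higher without any 1 of the TIM-1 libraries, with DESeq2, with no filter on low counts or with no treatment term, and 3 were with GC content removed.

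Replication-dependent histone genes took 0.0199% and 0.0254% of counts in the replicate 1 pair, 0.0261% and 0.0277% in the TIM-1 pair and 0.0374% and 0.0342% in the empty-vector pair. Within each treatment replicate 1 held the lowest share. Of 34 tested histone genes 12 were lower and none was higher (median -0.44), 7 without empty-vector replicate 1 and 5 without the treatment term. H1-2 gave 29.7 and 55.1 CPM against 60.3 and 65.3 in the TIM-1 pair and 98.5 and 87.2 in the empty-vector pair (-0.90, SE 0.09), and it was not called without the treatment term. Most histone mRNAs lack a poly(A) tail and have near-identical copies, so these counts are uncertain.

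Of 14 tested CDK inhibitors, D cyclins and pocket proteins, which set entry into the cell cycle, 5 were higher and 2 lower. Without empty-vector replicate 1, 3 were higher and 0 lower, and without TIM-1 replicate 1 a single gene was lower. CCNG2 stood at 35.9 and 25.7 CPM in the replicate 1 pair, 18.1 and 18.7 in the TIM-1 pair and 11.7 and 11.9 in the empty-vector pair (1.04, SE 0.11). CDKN2D was higher too (1.17, SE 0.18), while CDKN1A, the inhibitor p21, was lower at 70.5 and 57.1 CPM against 86.1 to 91.0 (-0.48, SE 0.08). CDKN1A was not called without empty-vector replicate 1. Of 22 tested p53 targets 10 were lower and 2 higher (median -0.27), 6 without empty-vector replicate 1. GADD45A, a stress sensor, gave 89.7 and 105 CPM against 216 to 264 (-1.29, SE 0.07), and BBC3, the cell death protein PUMA, differed by -1.62 (SE 0.19). DDB2 (0.64) and POLH (0.34), both of DNA repair, were the higher members and were chosen after their values were seen. A single p53 target was higher with DESeq2, with no treatment term and without any 1 of the TIM-1 libraries or empty-vector replicate 1. Of 18 tested FOXO and quiescence-linked genes 6 were higher and 3 lower. The lower count was 0 with DESeq2, with no treatment term and when TIM-1 replicate 3 or empty-vector replicate 1 was left out, and 1 without TIM-1 replicate 1 or empty-vector replicate 2. DEPP1, a FOXO target, had 82.2 and 31.4 CPM in replicate 1, 23.9 and 22.7 in the TIM-1 pair and 4.70 and 7.96 in the empty-vector pair (2.02, SE 0.13), the highest log2 difference among the named genes. It was not called without the treatment term.

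Oxidative stress, growth and ribosome genes were lower where they changed. HMOX1, which breaks down heme, stood at 157 and 236 CPM in the replicate 1 pair, 392 and 418 in the TIM-1 pair and 506 and 509 in the empty-vector pair (-1.23, SE 0.07). Of 23 tested NRF2 target and glutathione genes, 12 were lower and none higher (median -0.24), 7 without empty-vector replicate 1. MYC stood at 140 and 174 CPM in replicate 1 and 253 to 358 in the others (-0.93, SE 0.07). Of 29 ribosome biogenesis and MYC target genes, 15 were lower and none higher (median -0.21), and 7 or 6 lower when the TIM-1 or the empty-vector replicate 1 was left out. RRP12, an export factor of ribosomal subunits, differed by -0.83 (SE 0.08). Of 76 ribosomal protein genes 30 were lower and none higher, with a median of -0.16. That count moved with single libraries: 7 and 2 were lower when replicate 1 of the TIM-1 or of the empty-vector group was left out, 4 when TIM-1 replicate 3 was, 18 and 52 when empty-vector replicate 2 or 3 was, and 14 with no treatment term. Ribosomal protein genes have many pseudogene copies, so their counts are uncertain. Over all tested genes with a length, the difference had a Spearman correlation of 0.15 with exon length and 0.01 with GC content. The median exon length was 6256 bases for the higher and 4213 for the lower called genes, and the part of length in these results was not tested.

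Nuclear long RNAs and hosts of small nucleolar RNAs were lower too. NEAT1, the scaffold of paraspeckles, stood at 450 and 364 CPM in the replicate 1 pair, 777 and 808 in the TIM-1 pair and 689 and 612 in the empty-vector pair (-0.83, SE 0.07). MALAT1 (-0.52) and SNHG6 (-0.52) were also lower. Of 17 tested, 9 were lower and 1 was higher, with a median of -0.34. TUG1, the higher one (0.43), was chosen after its values were seen.

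Collagens, laminins and integrins were higher where they were called, while matrix proteases and plasminogen activators were split. Of 16 tested collagens, 6 were higher and none lower (median 0.33), 2 without empty-vector replicate 1 and 0 without the treatment term. COL5A1 stood at 65.5 and 36.8 CPM in the replicate 1 pair, 39.7 and 35.2 in the TIM-1 pair and 22.9 and 23.4 in the empty-vector pair, so that replicate 1 was highest within each treatment while the groups overlapped across treatments (0.74, SE 0.09). COL1A1, also a fibroblast marker, differed by 0.83 (SE 0.16). Of 16 laminins and integrins, 6 were higher and none lower (median 0.20), 2 without empty-vector replicate 1 and 2 without the treatment term. LAMA5 differed by 0.56 (SE 0.08). Among 17 matrix proteases and plasminogen activators, 6 were higher and 3 lower. MMP9, a gelatinase, gave 17.9 and 14.5 CPM against 4.48 to 5.13 (1.75, SE 0.15), whereas PLAU, the urokinase activator, gave 271 and 299 against 420 to 541 (-0.73, SE 0.07).

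Targets of TGF-beta and of YAP were mixed. Of 23 tested TGF-beta and BMP targets, 9 were higher and 3 lower, and 3 were higher without empty-vector replicate 1 and 5 without the treatment term. ID2, an inhibitor of differentiation factors, was higher (1.08, SE 0.09). Of 24 YAP-TEAD targets, 9 were lower and 5 higher, and 5 were lower without TIM-1 replicate 1. Both classical targets were lower: CCN2 stood at 134 and 123 CPM in replicate 1 and 260 to 283 in the others (-1.09, SE 0.07), and CCN1 at 483 and 467 against 860 to 905 (-0.90, SE 0.06). The higher count was 2 without either replicate 1 library or without TIM-1 replicate 2 or 3, 3 without empty-vector replicate 2 or 3, with DESeq2 or with no filter on low counts, and 1 with no treatment term. The 5 higher YAP-TEAD genes were ASAP1 (0.19), PTPN14 (0.20), ARHGEF17 (0.32), NT5E (0.39) and IGFBP3 (0.61), chosen after their values were seen.

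Interferon-stimulated genes did not move as a group. Of 32 tested, 8 were lower and 4 higher, with a median of -0.15. IRF1, also an NF-kB target, stood at 8.07 and 7.27 CPM in the replicate 1 pair and 21.5 to 34.0 in the others (-1.86, SE 0.15). IFIT2, named in the title of the study, was among the higher ones, with 5.59 and 3.70 CPM in the replicate 1 pair, 4.33 and 4.10 in the TIM-1 pair and 1.79 and 1.33 in the empty-vector pair. Empty-vector replicate 1 thus stood below both other TIM-1 libraries and above both other empty-vector libraries (0.76, SE 0.24, adjusted p = 0.0242). Within TIM-1 the IFIT2 difference was not called (0.41), and within the empty vector it was (1.24). The other higher ones were SAMD9 (0.94), IFI44 (1.03) and IFITM1 (1.26), and all 4 were chosen after their values were seen. Without empty-vector replicate 1, 3 genes were lower and 0 higher. The higher count was 2 without TIM-1 replicate 1 or 3 or with a minimum count of 50, 1 with DESeq2 and 0 with no treatment term.

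Of 20 MHC class I presentation genes, 12 were lower and 1 was higher (median -0.35), and 7 were lower without empty-vector replicate 1. TAP1, a peptide transporter, gave 27.5 and 30.4 CPM in the replicate 1 pair and 46.0 to 59.4 in the others (-0.88, SE 0.09), and ERAP1, which trims peptides, differed by -0.72 (SE 0.08). HLA-E was the higher one (0.27) and was chosen after its values were seen. It was not called without either replicate 1 library or with no treatment term. HLA genes are similar in sequence, so their counts are uncertain.

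**Figure D4:**
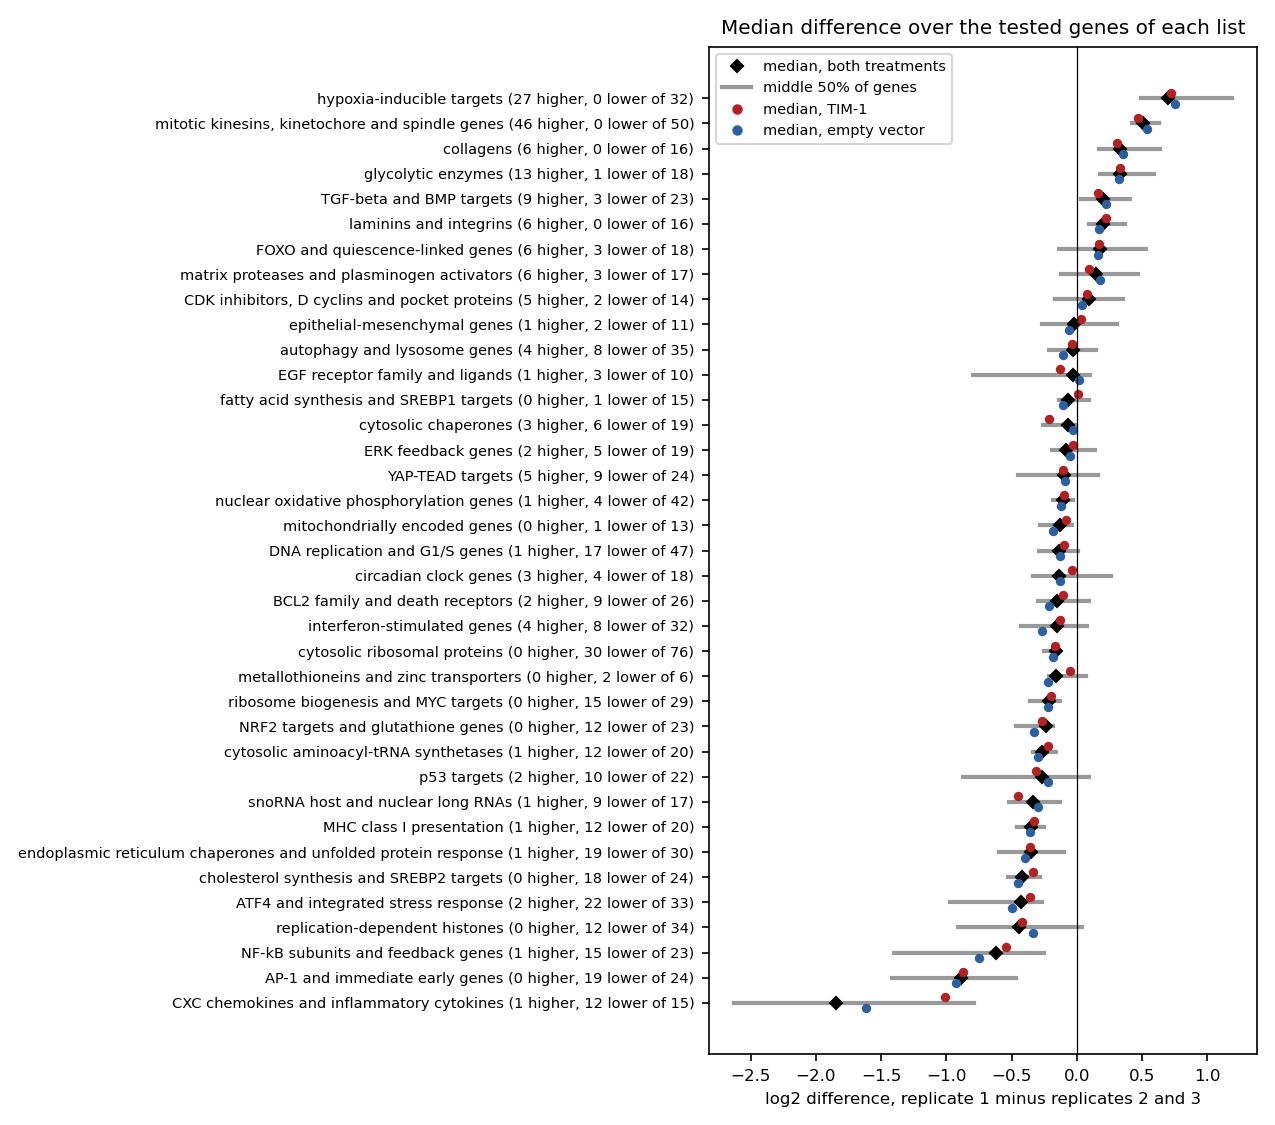
Median log2 difference of replicate 1 minus replicates 2 and 3 (horizontal axis) over the tested genes of each gene list (vertical axis, with the number called higher and lower), shown as black diamonds with grey bars for the middle 50% of genes, red circles for TIM-1 and blue circles for empty vector. The medians run from -1.85 for chemokines and cytokines to 0.70 for hypoxia-inducible targets.

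The remaining lists held few called genes or were split. Of 42 nuclear oxidative phosphorylation genes, 4 were lower (UQCRB, NDUFB10, COX7C and SDHD) and 1 was higher (NDUFS1, 0.18), with a median of -0.11. Leaving out single libraries moved the lower count between 1, without TIM-1 replicate 3, and 9, without empty-vector replicate 3, and with all 3 replicate numbers as levels of the fit (the replicate block) 7 were lower. With no treatment term 1 was lower. COX7C was not called without either replicate 1 library or TIM-1 replicate 3, NDUFB10 without TIM-1 replicate 3 or empty-vector replicate 1, and UQCRB without TIM-1 replicate 1. None was higher with DESeq2, with no filter on low counts, with no treatment term or without any single library other than empty-vector replicate 3. Among 13 mitochondrially encoded genes only MT-ND2 was called (-0.28), and it was not called by DESeq2, with GC content removed, with no treatment term or without either replicate 1 library or TIM-1 replicate 2. With the replicate block or without empty-vector replicate 2, 4 of the 13 were lower, and 3 without empty-vector replicate 3. Of 19 cytosolic chaperones, 6 were lower and 3 higher, and 1 was lower without TIM-1 replicate 1 and 3 with no treatment term. A single gene was higher without empty-vector replicate 1. HSP90AA1 differed by -0.47 and HSPA1B, which has a near-identical copy, by 0.44, which was not called without empty-vector replicate 1. Of 35 autophagy and lysosome genes 8 were lower and 4 higher, and 3 were lower without empty-vector replicate 1. The higher count was 2 with DESeq2 or without TIM-1 replicate 3 or empty-vector replicate 1, and 1 without TIM-1 replicate 1 or the treatment term. SQSTM1, the autophagy receptor p62 and an NRF2 target, stood at 243 and 270 CPM in the replicate 1 pair and 482 to 598 in the others (-1.08, SE 0.07).

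Among 18 circadian clock genes, 3 were higher and 4 lower, and the lower count was 1 without TIM-1 replicate 1 and 2 with DESeq2. BHLHE41 (1.27) and BHLHE40 (0.96), which also stand in the hypoxia list, were higher, and NR1D2 was lower (-0.35) but not called without TIM-1 replicate 1. Of 26 BCL2 family and death receptor genes 9 were lower and 2 higher, with 3 or 4 lower, and a single gene higher, when replicate 1 of the TIM-1 or the empty-vector group was left out. MCL1, which protects from cell death, differed by -0.73 (SE 0.07) and the decoy receptor TNFRSF10D by 0.91 (SE 0.10). Of 11 tested epithelial-mesenchymal genes, CLDN1 (-2.28) and VIM (-0.29) were lower and SNAI1 was higher (0.52). VIM was not called without either replicate 1 library, nor SNAI1 without TIM-1 replicate 1. CLDN1, a tight junction protein, gave 2.21 and 3.82 CPM in the replicate 1 pair against 14.2 to 15.5 in the other 4 libraries. Of 6 tested metallothionein and zinc transporter genes, SLC30A1 (-0.77) and SLC39A14 (-0.22) were lower, the second not without TIM-1 replicate 3, empty-vector replicate 1 or 2, or the treatment term.

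Several of the largest higher genes stood in none of the groups described so far, at low levels. KRT32, a hair keratin, had 35 and 37 counts in the replicate 1 pair, 6 and 12 in the TIM-1 pair and 13 and 11 in the empty-vector pair (1.92, SE 0.38). It was not called without TIM-1 replicate 1 (edgeR adjusted p = 0.0572). SERPINA1, a protease inhibitor, gave 4.97 and 4.26 CPM in replicate 1 and 0.845 to 1.73 in the others (1.87, SE 0.28). CCN5, a matricellular protein, gave 9.93 and 3.32 CPM, against 4.02 and 2.91 in the TIM-1 pair and 0.680 and 0.724 in the empty-vector pair (1.76, SE 0.24). Each was highest in replicate 1 within its treatment, as the naming rule requires. CCN5 overlapped across treatments and was not called without the treatment term.

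PFKFB4, a regulator of glycolysis from the hypoxia list, was more abundant, at 65.9 and 43.2 CPM in the replicate 1 pair against 16.2 to 18.1 in the others (1.64, SE 0.10). SKIDA1 differed by 1.72 (SE 0.27). MUC15, a membrane mucin, gave 5.80 and 4.89 CPM, 3.34 and 2.86 in the TIM-1 pair and 0.557 and 0.905 in the empty-vector pair (1.65, SE 0.31). It was not called within TIM-1, without empty-vector replicate 1 or without the treatment term. COL13A1 had 65 and 35 counts in replicate 1 and 24, 28, 19 and 2 in the others (1.65, SE 0.39). It was called within neither treatment, and not without either replicate 1 library or the treatment term. The naming rule takes mostly called genes, whereas 23.6% of all tested genes were called. By that rule 116 genes were taken up, of which 115 were called. The gene that was not called was HAVCR1. With no treatment term 21 of the called genes were not called, without empty-vector replicate 1 17, and without TIM-1 replicate 1 10.

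**Figure D5:**
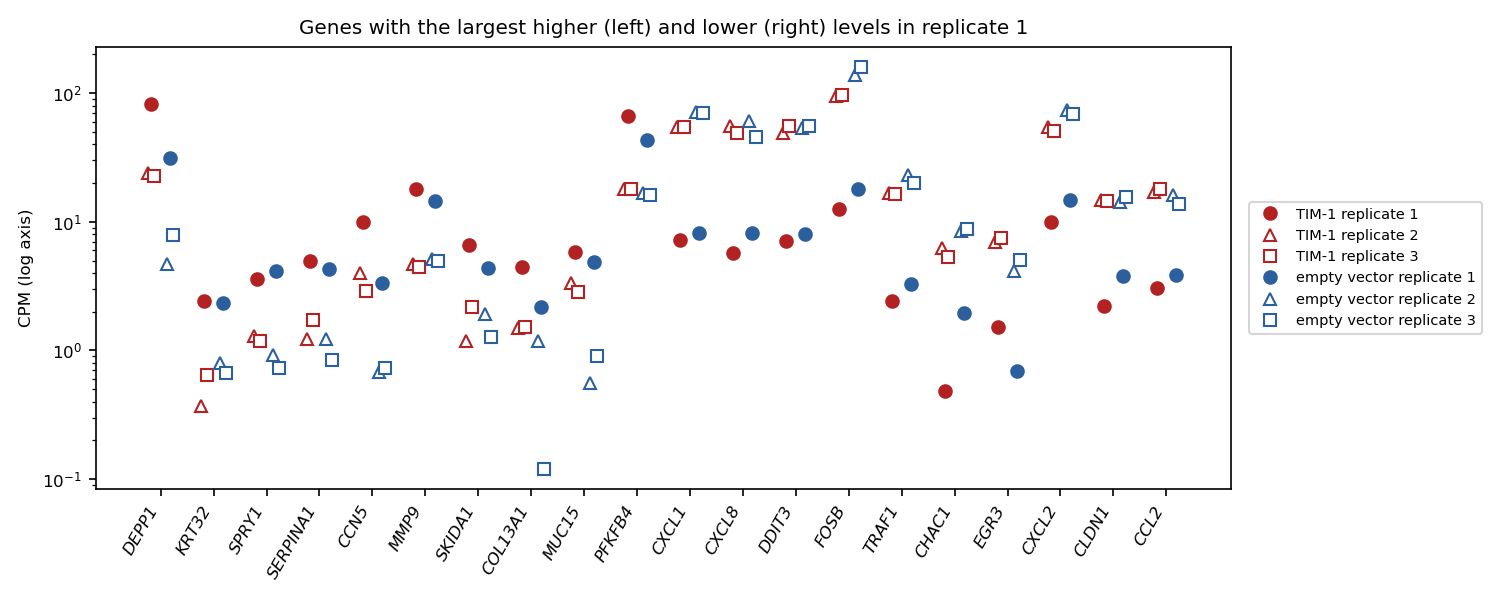
CPM on a log axis in each of the 6 libraries for the 10 genes with the largest higher and the 10 with the largest lower log2 difference under the naming rule, with filled circles for replicate 1 and open symbols for replicates 2 and 3, red for TIM-1 and blue for empty vector. As the naming rule requires, every filled circle lies outside the open symbols of its treatment. It lies above them for the genes on the left and below them for the genes on the right.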

How the data were processed

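The 6 RNA sequencing libraries of total RNA were grouped by the treatment in the labels and numbered as in the sample titles. Raw counts, as deposited, are whole reads for each of 60605 genes, without normalization. HISAT2 2.0.5, featureCounts 1.5.0-p3, DESeq2 1.16.1 and hg38 are named, per the submitters' processing notes. Which annotation, strand option and treatment of multi-mapped reads were used: not given in the sources used here, and reads of overlapping, antisense or near-identical genes may have been split or left out. Positions, lengths and GC content came from GENCODE 29, which held 58337 of the identifiers. Promoter sequences came from RefSeq (GRCh38.p14), with 10430 tested genes in that table.

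Tests were made with edgeR 4.0.16 in R 4.3.3, with TMM scaling and a robust quasi-likelihood F test, on the 14479 genes kept by filterByExpr with a minimum count of 10. Two-sided p-values received a Benjamini-Hochberg adjustment across the tested genes, and 0.05 was the threshold. Replicate 1 was compared with replicates 2 and 3 with treatment as a term (3 residual degrees of freedom). The differences within each treatment, and the difference between them, came from a fit with 4 classes (2 residual degrees of freedom). CPM values of single genes use TMM-scaled library sizes, whereas the summed CPM of marker genes uses the raw total counts. The fits were tested on simulated data with known changes in replicate 1. That simulation changed few genes, had no treatment difference and let replicate 1 vary like the other libraries. Its recovery shares may therefore not hold for the measured data. The test over both treatments recovered 66% of the genes changed by 0.5 on the log2 scale in both. It also called 12% of the genes changed by 1 in TIM-1 only. The test of the difference between treatments recovered 52% of the genes changed by 1 on the log2 scale in TIM-1 only. Pairs of libraries within a treatment all showed more than sampling noise (chi-square per degree of freedom 4.16 to 27.5). None of these was therefore counted as a copy of another. Pairs across treatments, including both replicate 1 libraries, were not checked in this way.

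The members, gene lists and tests were chosen with earlier results of these data known. Of 1048 listed genes, 1046 were matched by symbol and 1 by an older annotation name, and 1 was unmatched. Named genes were the 7 markers given for the comparison; up to 10 protein-coding genes per direction with the largest difference, called, a mean CPM of 1 or more and replicate 1 on the same side of its own treatment's libraries in both treatments; up to 3 called genes of smallest p per list, or, for a list with no call, up to 2 by mean CPM; up to 5 per direction past the threshold for the difference between treatments; and HAVCR1. Values of some genes that enter the list counts are not reported here. Alternatives were DESeq2 1.42.0, other scalings and filters, removal of GC content, leaving out each library, no treatment term, the replicate block and a test against a minimum size. As a check of pairing, deviations of log2(CPM + 0.5) from the treatment means were correlated between the treatments across genes: 0.59, 0.29 and 0.32 for same-numbered replicates 1, 2 and 3, and 0.22 and 0.31 for replicate 2 with 3. All same-numbered pairs lie above 0.1, but a replicate 1 that stands apart in both treatments raises these values, so they bear on replicate 1 only.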

Additional observations from a re-analysis of the deposited data

Results flagged for a closer look

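Among the 4 libraries of replicates 2 and 3, 1 value lay far from the other 3 for 6 of the 116 named genes, where chance flags about 1 in 20 groups. In empty-vector replicate 3, EGR1 stood at 707 CPM (653 to 658 in the other 3 libraries), PLK1 at 81.6 CPM (74.8 to 75.6), MT-ND2 at 3300 CPM (2412 to 2526) and VIM at 2120 CPM (1734 to 1770). In empty-vector replicate 2, ITGA4 stood at 13.9 CPM (9.53 to 9.61) and MCL1 at 382 CPM (345 to 349). The values of EGR1, MT-ND2, VIM and MCL1 lay farther from replicate 1 than the others did, and those of PLK1 and ITGA4 lay nearer to it. ITGA4 in empty-vector replicate 2 lay above TIM-1 replicate 1 (12.3 CPM), so its groups overlapped across treatments, and it was not called without empty-vector replicate 1 or the treatment term. Groups of 2 or 3 libraries were too small for this check.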

How the results depend on the processing

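Against 1673 higher and 1740 lower genes, leaving out single libraries gave 708 to 1963 and 670 to 2058, no treatment term gave 1055 and 1117, and a test against a log2 difference of 0.5 gave 98 and 130. Within TIM-1 (705 and 680), single libraries gave 253 to 1461 and 254 to 1440, DESeq2 gave 317 and 318, and removal of GC content gave 1065 lower. Within the empty vector (796 and 827), single libraries gave 575 to 1429 and 588 to 1738, and DESeq2 gave 357 and 413. The difference between treatments (0 and 0) gave 0 to 169 and 0 to 64 without single libraries, and 2 higher with DESeq2, 4 with no filter on low counts and 1 with GC content removed. The causes of these changes were not tested. A test against a minimum size is stricter by construction. Leaving out a library gave fewer calls in some cases and more in others.

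With all 3 replicate numbers as levels (the replicate block), 1912 genes were higher and 1912 lower, and 3412 of the 3413 called genes remained called, so the block moved neither total by over 1.5 times. Among the named genes it changed the call of HAVCR1, and among the gene lists it moved 2 counts by over 1.5 times, from 4 to 7 lower nuclear oxidative phosphorylation genes and from 1 to 4 lower mitochondrially encoded genes. The other scalings and the stricter filter changed no call among the named genes they gave a value for. The fitted HAVCR1 difference, which was not called (-0.31), turned to 2.04 with DESeq2 to 5.11 without TIM-1 replicate 1, where it was called (edgeR adjusted p = 0.033). It was also called, at -0.29 to -0.33, with no filter on low counts, with GC content removed, with the replicate block (-0.31) and without empty-vector replicate 1 or 3. It rests on 4, 0 and 0 counts in the empty-vector libraries, so it is no measure of a fold. With 2 libraries on 1 side, 3 residual degrees of freedom and a spread of 7.06% (biological coefficient of variation), the precision for small differences and low counts is limited.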
